A study of Mus musculus with 125 samples.

Results

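The genes described here are 6 components of the insulin-like growth factor (IGF) system in mouse endothelial cells: the binding proteins Igfbp2, Igfbp3, Igfbp4, Igfbp5 and Igfbp7 and the receptor Igf1r. They were chosen by name, 6 of the 27998 genes of the single-cell tables, and were read in 2 ways: as unique molecular identifiers (UMIs, 1 per captured transcript) in 5 brain single-cell libraries, and as ATAC-seq peaks, marking open chromatin, that overlapped each gene or lay within 50 kb of it in 66 peak lists. The single-cell libraries came from cells captured with anti-CD31 beads from whole brain of embryos (E9.5, E12.5, E16.5) and from cortex at P8 and in adults of 2 months, with 1 library per age. The ATAC-seq libraries came from nuclei of mice in which tamoxifen had switched on a GFP reporter in vessels, in endothelial and input preparations alike. Of these, 37 were labelled endothelial and 29 input (all nuclei of the tissue). They cover brain, heart, kidney, liver, lung and retina in 2-month adults (12 endothelial, 10 input) and at P6 (14 endothelial, 16 input), and brain, heart and trunk at E12 (11 endothelial, 3 input). The labels give neither the reporter's driver nor the strain, and their protocol places the P6 collection 1 day later than the group name. They do not say whether replicates came from separate animals, so the p-values below measure the spread between preparations, which may be technical.

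IGF1 and IGF2 are secreted growth factors that signal through the receptor tyrosine kinase encoded by Igf1r. The secreted binding proteins hold IGFs in the extracellular space, lengthening their life and either withholding them from the receptor or delivering them to it, and proteases release the ligand. IGFBP7 binds IGFs weakly and is a component of vascular basement membrane and a common marker of vessels. IGFBP3 and IGFBP4 are secreted binding proteins that endothelial cells can produce, and IGF signalling supports survival and growth of vessels.

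The promoters differed in base composition and in how often a peak covered them. The 250 bases upstream of the start site are shown for Igf1r and Igfbp7, whose promoters carried a peak in nearly every library, for Igfbp5, whose promoter carried one least often, and for Igfbp3, whose window differed between ages. Capitals mark GC boxes (GGGCGG on either strand). The sequences are from RefSeq, assembly GRCm38.p6, read 5′ to 3′ on the gene's strand.
Igf1r chr7:67952007-67952256 (+): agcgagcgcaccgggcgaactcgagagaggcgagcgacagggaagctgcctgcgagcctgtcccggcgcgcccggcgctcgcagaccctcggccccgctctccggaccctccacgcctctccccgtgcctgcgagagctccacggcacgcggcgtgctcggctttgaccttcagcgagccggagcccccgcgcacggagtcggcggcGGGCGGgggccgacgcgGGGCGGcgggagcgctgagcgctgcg
Igfbp7 chr5:77408046-77408295 (-): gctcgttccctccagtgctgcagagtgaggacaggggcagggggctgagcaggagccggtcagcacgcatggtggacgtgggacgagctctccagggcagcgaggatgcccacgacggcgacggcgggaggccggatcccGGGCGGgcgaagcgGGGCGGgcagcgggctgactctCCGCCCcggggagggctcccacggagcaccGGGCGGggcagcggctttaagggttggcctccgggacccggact
Igfbp3 chr11:7213924-7214173 (-): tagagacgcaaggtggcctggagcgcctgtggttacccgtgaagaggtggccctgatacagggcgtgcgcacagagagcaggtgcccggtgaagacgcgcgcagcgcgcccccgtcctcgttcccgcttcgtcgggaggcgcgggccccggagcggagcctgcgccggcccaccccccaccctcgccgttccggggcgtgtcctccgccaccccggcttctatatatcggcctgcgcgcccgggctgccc
Igfbp5 chr1:72874866-72875115 (-): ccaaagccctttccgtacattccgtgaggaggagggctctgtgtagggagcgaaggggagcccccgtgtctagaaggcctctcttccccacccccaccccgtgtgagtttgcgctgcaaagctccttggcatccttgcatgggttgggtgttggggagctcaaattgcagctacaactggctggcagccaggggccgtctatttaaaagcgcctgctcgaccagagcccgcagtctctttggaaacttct

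The Igf1r promoter was 77.6% G or C with 42 CG pairs, the Igfbp7 promoter 74% with 26, the Igfbp3 promoter 73.2% with 32 and the Igfbp5 promoter 58.8% with 10. Over 27025 mouse promoters the medians were 52% and 6, so all 4 lay above the median on both measures. Both strands were searched for the TATA box TATAAA, found in 13.0% of all promoters of this length, the GC box GGGCGG (32.9%), the ETS motif CCGGAAG (7.05%) and the forkhead motif GTAAACA (3.09%); none overlaps another. GGGCGG matched 4 times in the Igfbp7 promoter, 3 times in that of Igfbp2 and 2 times in that of Igf1r. TATAAA matched once, in the Igfbp4 promoter, and no searched motif matched in the windows of Igfbp3 and Igfbp5. A match is only a run of letters, and the absence of one says nothing of a factor's binding.

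Igf1r spans chr7:67952257-68233668, Igfbp7 chr5:77349240-77408045, Igfbp3 chr11:7206086-7215498 and Igfbp4 chr11:99040005-99052655. Igfbp2 (chr1:72824480-72852474) and Igfbp5 (chr1:72858065-72874865) are neighbours separated by 5590 bp, so their windows shared 25 merged peak regions, 73.5% of the 34 of Igfbp2 and 86.2% of the 29 of Igfbp5. The Igfbp3 window also held Igfbp1 and Adcy1, and that of Igfbp4 Top2a and Tns4. The Igfbp7 window held Noa1 and Polr2b, and that of Igf1r Pgpep1l and Fam169b. Peaks in each window belong to a stretch of chromosome and cannot be assigned to 1 gene.

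The single-cell values rest on 3154 to 6347 barcodes per library that had at least 200 detected genes, at most 10% mitochondrial UMIs and at least 3 of Cdh5, Pecam1, Egfl7, Esam, Tie1 and Kdr. Median depth was 4896 to 10469 UMIs per barcode and the totals were 23250196 to 80364390 UMIs. The tight junction gene Cldn5 was detected in 85.2% of the E9.5 barcodes and in 97.6 to 99.9% of those at the other ages. All 10 endothelial markers reached 10 CPM (UMIs of a gene per 1000000 UMIs) at every age. The 6 gate genes are among these 10, so the gate itself favoured them. Cldn5, Emcn, Erg and Flt1 were not used to gate. The file headers of E9.5, P8 and adult name a Cell Ranger version and those of E12.5 and E16.5 do not. Barcodes were shared within these sets (8 to 31 and 50 sequences per pair) more than across them (0 to 3). Dissociation also differed between embryonic and postnatal tissue, as did the region, whole brain against cortex. In the steps from E9.5 to E12.5 and from E16.5 to P8 age cannot be told apart from header set. From E16.5 to P8, and in E9.5 against P8 or the adult, age cannot be told apart from dissociation or region either. E12.5 and E16.5 share header set, dissociation and region, as do P8 and the adult. From the youngest to the oldest library, the summed CPM of 8 mural cell markers in the gated barcodes was 17.3, 88.4, 191, 712 and 1443. CPM intervals are exact 95% Poisson intervals and cover counting error only; there is no replicate of any age and no test between ages.

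The receptor Igf1r was higher at each successive age. Its level was 33.1 CPM (31.4 to 34.8) at E9.5, 73.9 (72.0 to 75.8) at E12.5, 292 (287 to 298) at E16.5, 357 (352 to 361) at P8 and 1045 (1032 to 1059) in the adult. No neighbouring ages had overlapping intervals, and the smallest step was from E16.5 to P8, a ratio of 1.22. Within the header set that names a version, P8 was 10.8-fold (10.2 to 11.4) and the adult 31.6-fold (30.0 to 33.3) above E9.5, and within the other set E16.5 was 3.96-fold (3.84 to 4.08) above E12.5. E9.5 barcodes without gate markers had 28.8 CPM (16.4 to 46.7) if erythroid and 18.2 (5.91 to 42.5) if microglia and macrophage. Those with epithelial markers had 63.4 (47.3 to 83.1). The gated E9.5 level was thus not shown to be above these classes, and the folds over it are ratios of measured levels only.

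Igfbp7, the vessel basement membrane protein, was lowest at E9.5 and highest at E16.5. It had 8.07 CPM (7.26 to 8.93) at E9.5, 1069 (1062 to 1076) at E12.5, 3777 (3759 to 3796) at E16.5, 2650 (2637 to 2663) at P8 and 1862 (1844 to 1879) in the adult. The E12.5 library was 133-fold above the E9.5 library, a larger ratio than for 99.4% of the 14043 genes with at least 30 UMIs in those 2 libraries. E9.5 barcodes without gate markers had 3.59 CPM (0.435 to 13.0) if erythroid and 0 (0 to 13.4) if microglia and macrophage. Those with epithelial markers had 1.22 (0.0309 to 6.79). The gated E9.5 level lay inside the erythroid and the microglia and macrophage intervals, so the 133-fold ratio is over a level not shown to be above background. From E16.5 onward the level was lower at each age, by 1.43-fold from E16.5 to P8 and by 1.42-fold from P8 to the adult. Mural barcodes with none of the gate markers also held the transcript, at 935 CPM at E12.5, 5129 at P8 and 3655 in the adult, and the mural list was higher at later ages as given above. Without gated barcodes carrying at least 2 markers of another cell type, mural among them, Igfbp7 had 964 CPM at E12.5 and 3965 at E16.5. It then had 2660 at P8 and 1718 in the adult. The part of free mural RNA in the Igfbp7 level was not tested.

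Igfbp3 was high in the 2 libraries of the middle embryonic ages and lower on both sides. Its level was 46.9 CPM (45 to 49) at E9.5, 299 (295 to 302) at E12.5, 321 (316 to 326) at E16.5, 48.3 (46.5 to 50.1) at P8 and 62.6 (59.4 to 65.9) in the adult. E9.5 and P8 had overlapping intervals. The 2 high libraries are the ones whose headers name no version. Each of the 2 was at least 4.77-fold above every other library, and 57 of 4835 genes (1.18%) were at least 2-fold higher in both, Igfbp3 being the single member among them. With at most 5% mitochondrial UMIs per barcode the P8 level was 114.3 CPM and the lowest of these ratios 2.53-fold.

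Igfbp4 was highest at E12.5 and lowest in the adult. It had 499 CPM (492.8 to 505.8) at E9.5, 595 (589 to 600) at E12.5, 426 (419 to 432) at E16.5, 290 (286 to 295) at P8 and 61.1 (57.9 to 64.3) in the adult. The adult library was 4.75-fold below P8 and 8.17-fold below E9.5, all 3 in the same header set. It was not above that of microglia and macrophage barcodes of the adult library (77.3 CPM, 25.1 to 180.4). The adult level was 32.0 CPM when each barcode was thinned to 1000 UMIs, 8.84-fold below P8 and 15.8-fold below E9.5, and 34.2 CPM as the mean over barcodes. With at most 5% mitochondrial UMIs per barcode it was 81.6 CPM, 3.36-fold below P8 and 5.93-fold below E9.5.

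Igfbp2 was highest at E12.5. It had 49.1 CPM (47.1 to 51.2) at E9.5, 186 (183 to 189) at E12.5, 61.0 (58.7 to 63.4) at E16.5, 4.10 (3.61 to 4.65) at P8 and 12.9 (11.5 to 14.5) in the adult. The adult value came from few barcodes: of 301 UMIs, 272 (90.4%) lay in 7 barcodes with at least 5 UMIs each, and all 7 also carried at least 2 fibroblast and at least 2 mural markers. At P8, 145 of 248 UMIs lay in 9 such barcodes, all 9 with fibroblast markers. Without fibroblast-marked barcodes the levels were 1.67 CPM at P8 and 0.890 in the adult, against 59.1 at E16.5, so the 3.16-fold higher adult level depended on those barcodes while the level at E16.5 changed little. They were 3.14% of the gated barcodes at P8 and 1.08% in the adult.

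Igfbp5 was highest at E9.5. It had 46.8 CPM (44.9 to 48.8) at E9.5, 3.75 (3.33 to 4.19) at E12.5, 0.847 (0.593 to 1.17) at E16.5, 2.1 (1.75 to 2.5) at P8 and 1.89 (1.38 to 2.54) in the adult. The P8 and adult intervals overlapped, and E12.5 was 12.5-fold below E9.5. At P8, 98 of 127 UMIs were in 6 barcodes, 5 of them with fibroblast markers, and the level without fibroblast-marked barcodes was 0.457 CPM, against 0.382 (16 UMIs) at E16.5. The higher level at P8 than at E16.5 (log2 ratio 1.31) turned to -1.45 when barcodes with at least 2 markers of any other cell type were left out, to -0.39 with at most 5% mitochondrial UMIs and to -1.06 when each barcode was thinned to 1000 UMIs. At E9.5, barcodes with epithelial markers and no gate marker had 373 CPM of Igfbp5 and 356 CPM of Igfbp2, and 225 gated E9.5 barcodes carried at least 2 epithelial markers. The E9.5 levels were 36.1 CPM of Igfbp5 and 43.8 of Igfbp2 without gated barcodes carrying at least 2 markers of another cell type, erythroid markers not counted. The part of free epithelial RNA in these levels was not tested. Erythroid barcodes of that library, which lack the gate markers, had 77.3 CPM (55.9 to 104) of Igfbp5 and 73.7 (52.9 to 99.96) of Igfbp2, no lower than the gated barcodes, while 30 microglia and macrophage barcodes had 7.29 (0.882 to 26.3) and 3.64 (0.0922 to 20.3). The E9.5 levels of both genes are therefore not read as endothelial expression, nor is the ratio to E12.5.

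**Figure D1:**
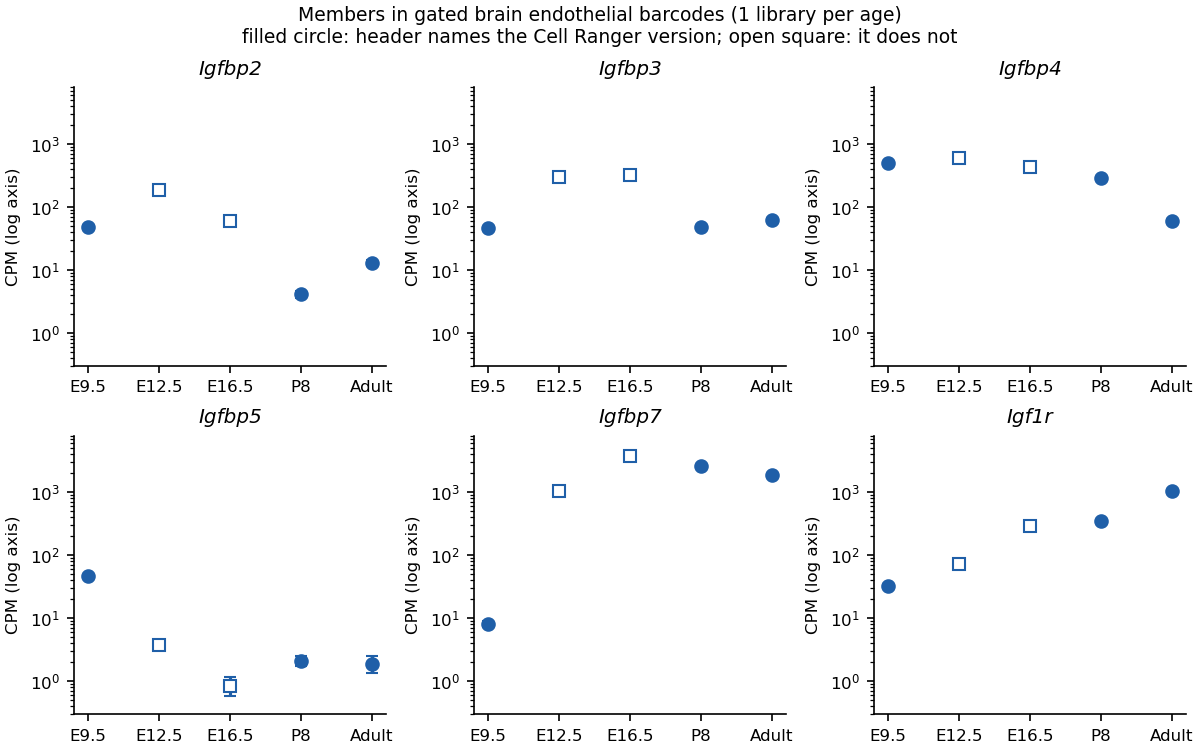
Level of each of the 6 genes (CPM of summed UMIs, log axis) in the gated brain endothelial barcodes at 5 ages, 1 library each; bars are 95% Poisson intervals, often smaller than the symbol. Igf1r is highest in the adult (1045 CPM), Igfbp7 at E16.5 (3777 CPM) and Igfbp5 at E9.5 (46.8 CPM), and the 2 open squares, libraries without a version in the header, are the 2 highest for Igfbp3.

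The counts that follow are of ratios as measured. Some of the levels were not shown to be above erythroid or microglia and macrophage barcodes, among them Igfbp2, Igfbp5, Igfbp7 and Igf1r at E9.5. The same held for Igfbp5 at E12.5, for Igfbp2, Igfbp3 and Igfbp5 at P8 and for Igfbp2, Igfbp4 and Igfbp5 in the adult. For adult Igfbp2 and Igfbp5, the 27 microglia and macrophage barcodes held 0 UMIs, with an interval up to 57.0 CPM. At E16.5 no class without gate markers had at least 20 barcodes, so its levels were not compared with a background. Counted by a 2-fold threshold, 5 of the 6 genes differed between E9.5 and E12.5: Igfbp2, Igfbp3, Igfbp7 and Igf1r were higher and Igfbp5 lower. Of all 14043 genes tested for that step, 23.4% were past 2-fold higher and 11.9% lower, 35.3% in all. From E12.5 to E16.5, Igfbp7 and Igf1r were higher and Igfbp2 and Igfbp5 lower, 4 of 6 against 23.7% of all genes (10.5% higher, 13.2% lower). From E16.5 to P8, Igfbp5 was higher and Igfbp2 and Igfbp3 lower, 3 of 6 against 24.6% (14.5% higher, 10.1% lower). The count was 2 to 3 over 8 other settings, and the direction of Igfbp5 turned in 3 of them as given above. From P8 to the adult, Igfbp2 and Igf1r were higher and Igfbp4 lower, 3 of 6 against 30.8% (16.6% higher, 14.2% lower). The count was 2 to 4 over the other settings, and Igfbp2 turned to a log2 ratio of -1.19 without barcodes carrying markers of another cell type. The median log2 ratio of the members was 1.54, -0.19, -0.53 and 0.11 over these steps, and that of all genes was 0.21, -0.04, 0.07 and 0.08. Within the header set that names a version, 4 of 6 passed 2-fold between E9.5 and P8 (49.4% of all genes, 30.2% higher and 19.2% lower) and 5 of 6 between E9.5 and the adult (58.8%, 34.9% higher and 23.9% lower), counts of the same order as these shares.

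The genes differed in how they were spread over vessel-type markers. Barcodes were sorted into arterial (at least 3 of 7 arterial markers, at most 1 venous), venous (the reverse), both and neither. The venous list was Nr2f2, Vwf, Slc38a5, Ephb4, Icam1, Vcam1 and Lcn2. In the order of the ages, 19.3, 63.8, 76.2, 69.0 and 44.9% of gated barcodes carried at least 2 of them. The class names therefore stand for marker sets, and the venous class is not shown to be cells of veins. The sorting was chosen after the levels had been seen. It rests on how many markers were detected, so the classes can also differ in depth and in mixed barcodes. Depth was not matched between classes. Igfbp3 was highest in the barcodes with arterial markers. At E16.5 it had 1209 CPM in arterial and 126 in venous barcodes, at E12.5 1077 and 128, at E9.5 126 and 21.2, at P8 185 and 7.98, and in the adult 95.7 and 4.89. The arterial class was above the venous class in all 5 libraries, and all 104 adult barcodes with at least 5 Igfbp3 UMIs carried at least 2 arterial markers, against 30.2% of all adult barcodes. Of the same 104, 35 also carried at least 2 mural markers, against 13.2% of all adult barcodes. Without gated barcodes carrying at least 2 markers of another cell type, the adult Igfbp3 level was 57.2 CPM, against 62.6 with them. The part of mural RNA in the arterial class was not tested.

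Igfbp4 was spread over all classes up to P8 and was in few adult barcodes. At E12.5 it had 738 CPM in arterial and 601 in venous barcodes, and at P8 244 and 290, the reverse order. In the adult it had 29.1 CPM in arterial and 6.92 in venous barcodes, 175.1 in barcodes with both marker sets and 2.35 in those with neither. Of the 92 adult barcodes with at least 5 Igfbp4 UMIs, 91 carried at least 2 arterial and 35 at least 2 mural markers.

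Igfbp7 was above venous levels in arterial barcodes at every age, with 1836 against 591 CPM at E12.5 and 2470 against 1127 in the adult. It was also lower in cycling barcodes (at least 3 of 6 proliferation markers): 795 against 1650 CPM in barcodes outside the cycle at E12.5, 2300 against 4175 at E16.5 and 1297 against 3202 at P8. Igf1r showed another order in the adult, 1549 CPM in barcodes with neither marker set, 1169 in venous, 959 in arterial and 506 in barcodes with both. At P8 its 4 classes lay between 313 and 431 CPM. Over all adult barcodes Igf1r had 1045 CPM, 1245 when each was thinned to 1000 UMIs and 1307 as the mean over barcodes. The part of depth in the order of the adult classes was not tested.

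**Figure D2:**
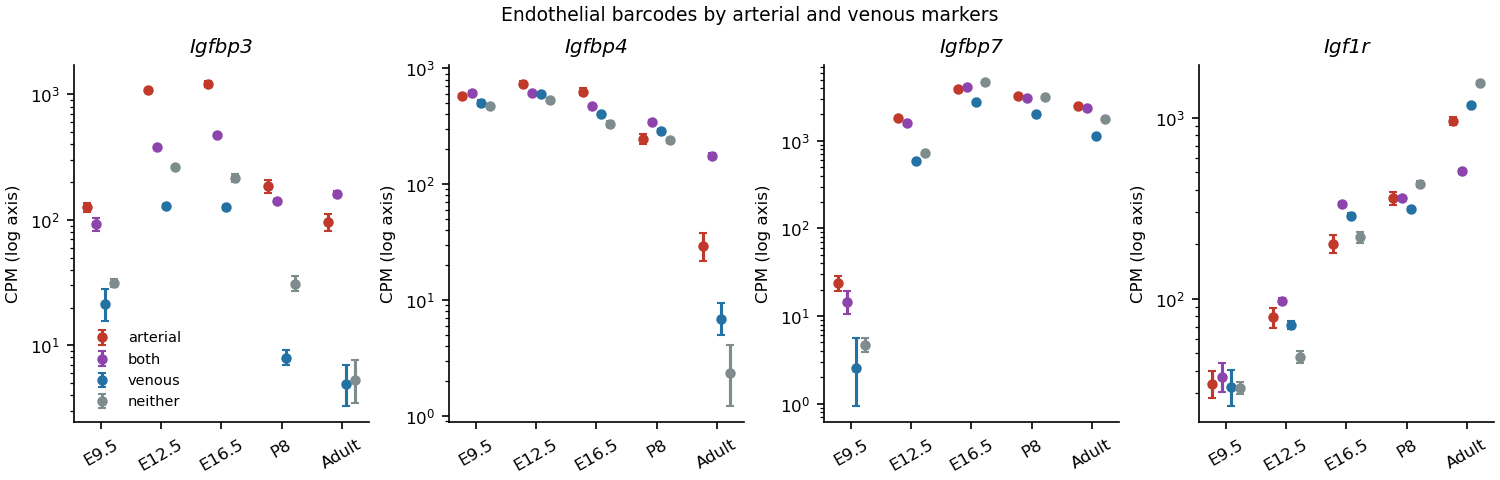
CPM (log axis) of 4 genes by age in barcodes with arterial, venous, both or neither marker sets; bars are 95% Poisson intervals of 1 library. Igfbp3 is higher in arterial than venous barcodes at all 5 ages, and adult Igfbp4 reaches 175.1 CPM in barcodes with both sets.

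The shares of barcodes with a UMI are given beside the levels. Igf1r was detected, from the youngest to the oldest library, in 21.5, 48.0, 76.8, 88.0 and 95.9% of barcodes. After thinning to 1000 UMIs per barcode, which left out 0 to 58 shallower barcodes per library, these shares were 2.98, 6.79, 20.7, 31.9 and 64.1%, the same order. Igfbp7 had 4.62, 82.8, 99.5, 99.1 and 96.3%, and 0.994, 45.6, 89.6, 88.6 and 77.4% after thinning. The shares of Igfbp3 were 23.8, 57.4, 52.8, 10.5 and 14.7%, and 4.85, 18.9, 18.5, 2.78 and 3.46% after thinning. As a measure of free RNA, 262 microglia and macrophage barcodes of the E12.5 library (median 6738 UMIs against 10469 in the endothelial ones) had a UMI of Igfbp7 in 20.6%, of Igf1r in 9.92%, of Igfbp3 in 4.58% and of Igfbp2 in 4.96%, where endothelial barcodes had Igfbp2 in 72.7%. Igfbp4 was in 71.8% of them at 311 CPM, against 97.4% of endothelial barcodes. In 384 erythroid barcodes of that library (median 6911 UMIs) the background was higher for Igfbp7 (31.5%, 82.2 CPM), Igfbp2 (11.7%, 37.2 CPM) and Igfbp3 (7.29%, 10.7 CPM), each below the endothelial share and level. Igfbp5 was in 2.76% of endothelial, 1.91% of microglia and 3.91% of erythroid barcodes, at 12.9 CPM in the last against 3.75 in endothelial ones, so its E12.5 level is not above background. The 38 barcodes with mural and 41 with fibroblast markers and no gate marker had 343.8 and 410.6 CPM of Igfbp2 at E12.5, above the endothelial 186. In the adult, Igfbp4 was in 9.61% of endothelial barcodes and in 11.1% of 27 microglia and macrophage barcodes (median 1228 UMIs against 4896), where 5 UMIs gave 77.3 CPM (25.1 to 180.4), no lower than the endothelial 61.1. Neither that share nor that level is above this class. At P8, 52 erythroid barcodes (median 940 UMIs) had an Igfbp7 UMI in 34.6%, at 1476 CPM (1240 to 1744), against 99.1% and 2650 CPM in endothelial barcodes (median 8468 UMIs). The same P8 erythroid barcodes had 363.6 CPM of Igfbp2, 96.3 of Igfbp5 and 64.2 (23.5 to 140) of Igfbp3, none of them below the endothelial levels. These values rest on 34, 9 and 6 UMIs, in 13.5, 5.77 and 7.69% of the 52 barcodes. Gated P8 barcodes held 4.10 CPM of Igfbp2, and 83.7% of them also carried at least 2 erythroid markers. The class is therefore not a measure of free RNA alone. It does not decide whether the P8 levels of these 3 genes are above background.

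Among 4835 genes with at least 50 CPM at 1 age or more, those whose profile over the 5 libraries lay closest to each member were found by the root mean square difference of centred log2(CPM + 1). The closest to Igf1r were Axin2 (0.163), a target of Wnt signalling, Arl4d (0.167) and Tmem140 (0.201). Next to Igfbp7 were the globin gene Hbb-bt (0.414) and the amino acid transporters Slc38a5 (0.466) and Slc38a3 (0.503), and next to Igfbp4 the replication gene Mcm2 (0.283), Ralgps2 (0.284) and Tspan18 (0.286). Igfbp3 had Ost4 (0.339), 8430408G22Rik (0.351) and Ubl7 (0.355). The nearest profile was farther for Igfbp5 (Fasn, 0.483) and farthest for Igfbp2 (Col15a1, 0.718). Each comparison has 5 points, which share the libraries' depth and header sets.

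Other genes of the pathway were taken from a list of 24 ligands, receptors, binding proteins, proteases and intracellular effectors, 9 of which reached 50 CPM at some age. In the order of the ages, the ligand Igf2 had 310, 294, 59.0, 13.1 and 14.9 CPM, lower at each age up to P8. The insulin receptor Insr had 8.57, 38.4, 82.0, 150 and 173 CPM, the same order of ages as Igf1r. Igf2r, which clears IGF2, had 81.4, 38.3, 38.7, 21.1 and 11.3 CPM. The secreted protease Htra3 had 2.89, 206, 349, 253 and 7.40 CPM, low at both ends of the series, and Htra1 had 2.25, 26.3, 82.3, 105 and 68.5 CPM. The adaptor Grb10 had 177 CPM at E9.5 and 80.7 in the adult, and the effectors Akt1, Foxo1 and Pik3r1 lay between 21.1 and 98.1 CPM at all ages. Past the 2-fold threshold, 5 of 19 tested pathway genes were higher and 4 lower from E9.5 to E12.5, 5 and 2 of 17 from E12.5 to E16.5, 1 and 5 of 18 from E16.5 to P8, and 3 and 4 of 17 from P8 to the adult. Their median log2 ratios were 0.46, 0.29, -0.38 and 0.16, beside the medians of all genes given above.

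**Figure D3:**
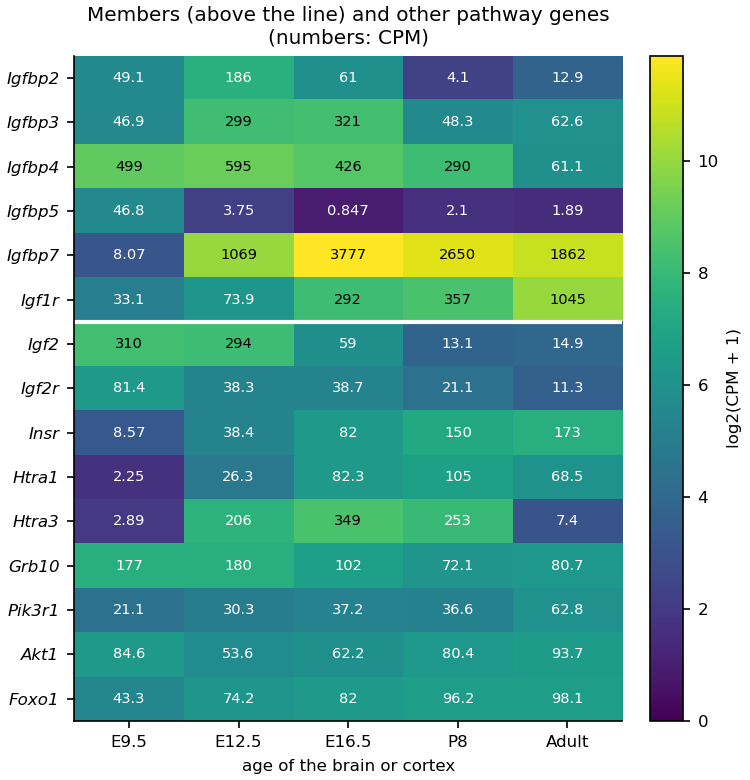
CPM (printed; colour is log2(CPM + 1)) of the 6 members, above the white line, and of the 9 other pathway genes with at least 50 CPM at 1 age, in the 5 libraries. Igf1r and Insr are higher at each later age, while Igf2 goes from 310 CPM at E9.5 to 14.9 in the adult.

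In the ATAC-seq peak lists, Igfbp7 and Igf1r had open promoters in nearly every preparation, endothelial or not. A peak overlapped the interval from 250 bases before to 50 after the start site of Igfbp7 in 37 of 37 endothelial and 28 of 29 input lists, and that of Igf1r in 36 of 37 and 27 of 29. The counts were 32 and 21 for Igfbp4, 29 and 19 for Igfbp3, 16 and 21 for Igfbp2 and 9 and 9 for Igfbp5. The median promoter had a peak in 48 of 66 lists, and 33.9% of 17492 promoters had one in every list. The Igfbp7 promoter had a peak in more lists than 61.9% of promoters and that of Igf1r in more than 58.7%. The Igfbp3 promoter had no peak in any of the 4 liver endothelial lists or in the 2 adult lung endothelial lists. Where a peak was present, the authors' fold over local background had a median of 4.18 for Igfbp7, 3.80 for Igf1r, 3.28 for Igfbp3, 3.25 for Igfbp2, 3.04 for Igfbp4 and 2.66 for Igfbp5. List lengths ran from 19464 to 144197 peaks at 10139069 to 59082479 tags, so presence in these lists also follows how much was called; among the 19464 strongest peaks of each endothelial list, the Igf1r promoter was covered in 35, that of Igfbp7 in 27, and those of the other 4 in 0 to 5.

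To compare preparations, each list was reduced to as many of its strongest peaks as the shortest list of the comparison held, and peaks in the 50 kb window of each gene were counted. Input nuclei include those of vessels, and the share of endothelial nuclei and the openness per nucleus cannot be told apart in bulk libraries. Mean differences over organs were tested by exact permutation within organs, 2-sided, with Benjamini-Hochberg adjustment over all genes. In adults, with 19464 peaks per list, none of the 6 members passed by this permutation test, and 1, Igfbp7, had an unadjusted p under 0.05 (0.0355). With the full lists, of unequal length, Igfbp2, Igfbp3 and Igfbp5 passed as lower, as did 5123 of all genes against 62 higher, and in the other 6 settings no member passed. Endothelial lists had 2 to 7 peaks in the Igfbp7 window and input lists 1 to 7, a mean difference over organs of 1.92 peaks (adjusted p = 0.175). The Igfbp2 window held 0 to 4 peaks in endothelial and 0 to 5 in input lists (difference -0.92, adjusted p = 0.272 by permutation), and the values overlapped. Differences were -0.83 for Igfbp3, -0.75 for Igfbp4, -0.67 for Igfbp5 and 0.42 for Igf1r, with adjusted p from 0.272 to 0.702 by permutation. Of all 19341 genes, 2.92% passed as higher and 1.32% as lower in endothelial lists, 4.24% in all. Of the pathway list, Igfbpl1 (-1.42, adjusted p = 0.0338 by permutation) and the imprinted adaptor gene Grb10 (-2.08, adjusted p = 0.0485 by permutation) fell.

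At P6, with 27160 peaks per list, the Igfbp2 window had fewer peaks in endothelial than in input lists and the Igfbp7 window more. For Igfbp7, the endothelial lists held 7, 4 and 7 peaks in brain, 9 and 9 in heart, 6 and 8 in kidney, 8 and 8 in liver, 4 and 4 in lung and 6, 5 and 5 in retina. The input lists held 4, 1 and 3 in brain, 1 and 1 in heart, 5, 6 and 7 in kidney, 6 and 5 in liver, 8, 7 and 7 in lung and 4, 2 and 3 in retina. Endothelial means were higher in 5 organs and lower in lung. The preparations did not overlap in heart, liver, retina and, in the other direction, lung, and did in brain and kidney. The mean over organs was 6.56 against 4.25 peaks, a difference of 2.31 (exact permutation, adjusted p = 0.0496). The call lay close to the threshold of 0.05 and was lost on leaving out any 1 of 24 of the 30 libraries. Over all 30 such runs the adjusted p was 0.0402 to 0.0815 by permutation. It was also lost in 6 of 7 other settings, among them the full lists (a difference of 0.14 peaks) and ranking by fold (a difference of 0.28). The 6 libraries whose removal kept it were endothelial brain 2 and kidney 1 and input brain 1, kidney 3, lung 1 and retina 1. With a 10 kb window the difference was 3 (adjusted p = 0.0047 by permutation). Igfbp7 and Igfbp2 were 2 of 6 members, beside 16.6% of 20022 genes called higher and 13% called lower, 29.5% in all. With the full lists 418 genes were higher and 6250 lower.

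For Igfbp2, endothelial lists held 4, 3 and 1 peaks in brain, 1 and 1 in heart, 1 and 1 in kidney, 1 and 0 in liver, 0 and 0 in lung and 2, 1 and 2 in retina. Input lists held 1, 3 and 4 in brain, 1 and 1 in heart, 4, 4 and 3 in kidney, 2 and 3 in liver, 2, 2 and 2 in lung and 1, 4 and 2 in retina. The groups did not overlap in kidney, liver and lung, and had equal means in brain and heart. The means were 1.14 against 2.36 peaks, a difference of -1.22 (exact permutation, adjusted p = 0.0192), which kept its call on leaving out any library. It lost the call in 3 of 7 other settings, among them peaks ranked by fold (-0.33) and a 10 kb window (-0.19). The other differences were -0.75 for Igfbp5 (adjusted p = 0.163 by permutation), -0.25 for Igfbp3, 0.17 for Igfbp4 and 0.86 for Igf1r. In the pathway list, Igf2r (3.58), Insr (2.25), Foxo1 (1.75) and Stc1 (0.97) rose in endothelial lists, with adjusted p from 1.4e-04 to 0.0332 by permutation, and Grb10 (-2.72), Igfbpl1 (-2.19) and Pappa (-1.31), whose product cleaves binding proteins, fell.

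Between ages, the Igfbp3 window had fewer peaks in adult than in P6 endothelial lists. Among 19464 peaks per list, 11 of 12 adult lists had 0 peaks there and 1 kidney list had 3, whereas the 14 P6 lists had 1 or 2 each. All E12 endothelial lists had 2 to 6. The adult means were lower in all 6 organs, by 1.17 peaks (0.25 against 1.42, exact permutation, adjusted p = 0.0341). The same peaks were counted for Igfbp1, whose window gave the same difference. Of 18879 genes, 0.916% passed as lower and 1.36% as higher in adults (2.27% in all), and none of the other 5 members passed or had an unadjusted p under 0.05 by this permutation test. With the full lists all 6 members passed as lower, beside 16276 genes lower and 20 higher. The call was lost without adult brain 1 or 2, heart 1 or 2, kidney 2 or retina 1 or 2, or without P6 kidney 1 or 2 (adjusted p up to 0.0697 by permutation), without retina altogether (-1.20, adjusted p = 0.0938 by permutation) and with a 10 kb window (-0.50).

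**Figure D4:**
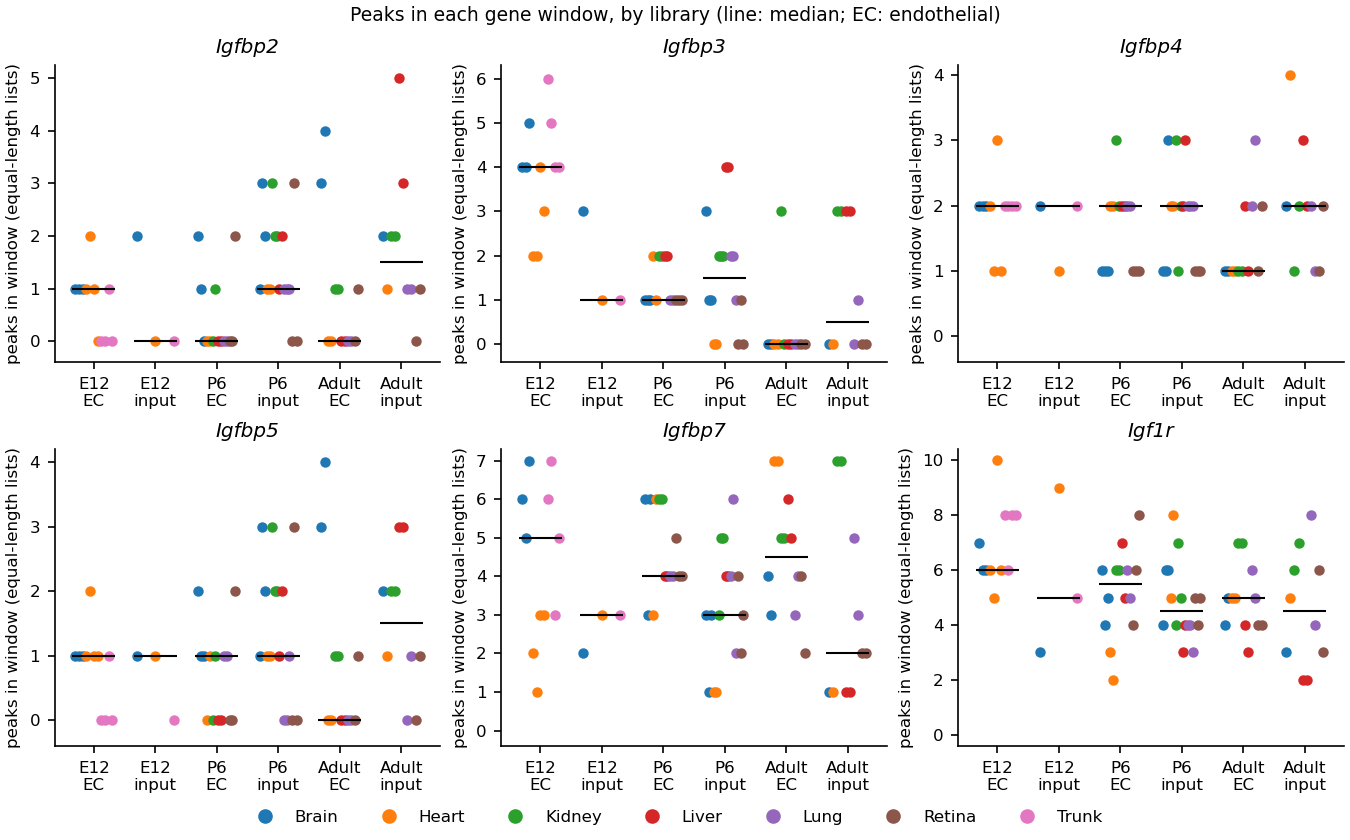
Number of peaks in the window of each gene among the 19464 strongest peaks of each of 66 lists, by age and preparation; each point is a library coloured by organ and the line is the median. In the Igfbp3 panel 11 of 12 adult endothelial points are at 0 while the P6 endothelial points are at 1 or 2 and the E12 points at 2 to 6.

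Organs were compared within the 26 adult and P6 endothelial lists, a comparison added after the data were seen. Of 36 permutation tests of a member in an organ, 0 passed, 6 had an unadjusted p under 0.05, and with the full lists 1 passed, Igf1r in retina (8.45 peaks, adjusted p = 0.0358 by permutation). The nearest were Igfbp5 and Igfbp2 in brain, whose overlapping windows each held 3 and 4 peaks in adult brain and 0 to 2 in the other organs; P6 brain held 2, 1 and 1 for Igfbp5 and 2, 1 and 0 for Igfbp2. The differences were 1.99 (exact permutation, adjusted p = 0.0563) and 1.96 (exact permutation, adjusted p = 0.0628), and on leaving out 1 library at a time the adjusted p ran from 0.0374 to 0.238 and from 0.0443 to 0.264 by permutation. Of all genes, 2.4% passed as higher and 0.445% as lower in brain, 0.975 and 0.0636% in heart, 5.14 and 1.95% in liver, 0.985 and 0.0689% in lung, 23.7 and 6.96% in retina and none in kidney. Outside brain, all endothelial lists of an organ were of 1 kind of read processing by their headers, and its part in these differences was not tested.

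Single regions were then compared by the presence of a peak, with an exact conditional test stratified by organ and adjusted over all regions, in the lists cut to equal length. At P6, 7 regions in the members' windows passed, 6 more often and 1 less often present in endothelial lists. They were 5.6% of the regions tested in those windows. Of 136452 regions, 3.55% were called higher and 0.232% lower, 3.78% in all, a share near that of the members. Igfbp7 had 3 of them, all inside the gene. The region chr5:77366197-77366980, 41.5 kb downstream of the start site, was in 11 of 14 endothelial and 0 of 16 input lists (exact test, adjusted p = 0.00381). The region chr5:77386286-77387559, 21.1 kb downstream, was in 9 of 14 and 0 of 16 (exact test, adjusted p = 0.0144), and chr5:77357454-77358943, 49.8 kb downstream, in 14 of 14 and 6 of 16 (exact test, adjusted p = 0.00998), the 6 being all kidney and lung inputs. Among these 27160 strongest peaks the first was absent from the lung and the second from the kidney endothelial lists; the full lists held both regions in all 6 organs.

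Igf1r had 1 called region, chr7:68030711-68031316, 78.8 kb inside the gene, in 10 of 14 endothelial and 2 of 16 input lists (exact test, adjusted p = 0.0107). Among the 27160 strongest peaks it was in every brain, kidney, lung and retina endothelial list and in none of heart or liver, while the full lists held it in all 6 organs. Igfbp4 had chr11:99043005-99043524, 2.0 kb downstream of the start site, in 10 of 14 and 1 of 16 lists (exact test, adjusted p = 0.0189), among them all heart, kidney, liver and lung endothelial lists. In the Igfbp3 window, chr11:7198491-7199232 lies within the neighbouring gene Igfbp1, 15.1 kb downstream of the Igfbp3 start site. It was present in 8 of 14 endothelial and 0 of 16 input lists (exact test, adjusted p = 0.0144), namely in all brain, lung and retina lists and in no heart, kidney or liver list among the 27160 strongest peaks, and in all 6 organs in the full lists. Inside Igfbp5, chr1:72870911-72871455 was the region seen less often, in 3 of 14 endothelial and 13 of 16 input lists (exact test, adjusted p = 0.0293).

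The calls depended on how peaks were chosen. With the full lists, the Igfbp7 region at 41.5 kb kept its call (adjusted p = 0.0308 by exact test) and the other 6 did not, with adjusted p from 0.0600 to 1.00. The Igfbp5 region lost its call without P6 endothelial heart 1, kidney 1, lung 1 or lung 2 (adjusted p 0.0506 to 0.0651 by exact test), lost it in all 7 other settings and turned direction with peaks ranked by fold. Ranking by fold kept the regions in the Igfbp3 window and in Igf1r, and leaving out retina kept that of Igfbp4 and those of Igfbp7 at 41.5 and 21.1 kb. A minimum −log10 q of 5 ended the calls of Igf1r and of Igfbp7 at 49.8 kb, and a required cover of 50% of the region that of Igfbp7 at 21.1 kb.

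Counted in the full lists at all 3 ages, the region in the Igfbp3 window was in 11 of 11 endothelial lists at E12, 12 of 14 at P6 and 0 of 12 in adults, and in 0 of 3, 6 of 16 and 0 of 10 input lists. The Igfbp7 region at 41.5 kb was in 5 of 11, 13 of 14 and 8 of 12 endothelial lists and in 0 of 3, 3 of 16 and 1 of 10 input lists. The Igf1r region was in 11 of 11, 13 of 14 and 6 of 12 endothelial lists and 2 of 3, 11 of 16 and 2 of 10 input lists. The adult against P6 test was run on lists cut to the 19464 strongest peaks, not on these full-list counts, and called no region: 0 of 66601 passed, with 3306 at an unadjusted p under 0.05 and a smallest adjusted p of 0.128 by exact test, and the same test on full lists, whose median length was lower in adults, called 3945 lower and 3 higher. The adult endothelial against input test likewise called 0 of 88317 regions, with 4637 at an unadjusted p under 0.05 and a smallest adjusted p of 0.275 by exact test, and 0 were called in 7 other settings.

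**Figure D5:**
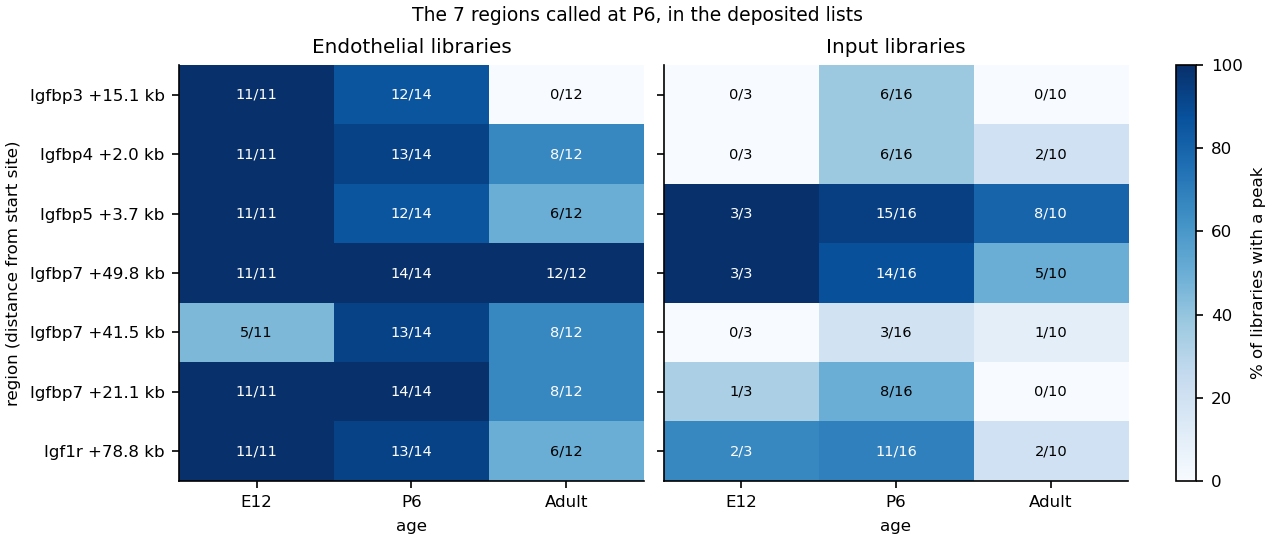
Share of endothelial (left) and input (right) lists with a peak at each of the 7 regions called at P6, at E12, P6 and in adults, in the full deposited lists; rows name the gene window and the distance downstream of the start site, and cells give lists with a peak of all lists. The row Igfbp3 +15.1 kb goes from 11/11 at E12 to 0/12 in adult endothelial lists.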

How the data were processed

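The 6 genes and the marker and pathway lists were chosen with earlier results of these data known. The deposited single-cell counts are the authors' raw UMI counts per gene and barcode, per the file headers and the values. The E16.5 matrix had no gene table of its own, and its rows were taken to follow the other gene tables. The name under which this matrix was deposited gives another age than its sample label, and the age of the label was used. The peak lists hold the authors' signal (tag pileup), fold over local background, and −log10 p and q, per the file headers, which name MACS2 2.1.2 run without a control in broad mode. The submitters' processing notes name mm10, Bowtie2, SAMtools 1.13, Cell Ranger and Seurat 4.0.4. Nuclear RNA-seq (54 libraries) was not used here, since transcripts could not be matched to genes.

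UMIs were summed over gated barcodes and divided by their total. Ratios are quotients of these CPM values, counted over genes with at least 30 UMIs in the 2 libraries, and TMM factors (edgeR 4.0.16, R 4.3.3) were applied in an alternative. No doublet caller was run; barcodes with at least 2 markers of another cell type were left out in an alternative. Peak lists were cut to equal length by −log10 p. Gene windows were compared by exact permutation within organs and regions by an exact conditional test (numpy 2.4.6, scipy 1.17.1, Python 3.11.15), with Benjamini-Hochberg adjustment over all genes or regions at 0.05. Both tests were tested on simulated data. Positions and promoters are RefSeq GRCm38.p6, and all 6 members matched by symbol. The text names the 6 members, regions past the threshold, the 3 closest profiles and listed pathway genes that reached 50 CPM or passed a test.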

Additional observations from a re-analysis of the deposited data

Results flagged for a closer look

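In 6 of 24 sets of 4 endothelial E12 libraries, 1 library lay far from the other 3 in its number of peaks. Chance flags about 1 in 20 sets of independent continuous values, a rate that does not apply here: 4 of the 6 are small counts against 3 tied values, where any departure is flagged, and the Igfbp2 and Igfbp5 windows share peaks. In the deposited lists, heart replicate 3 had 3 peaks in the Igfbp4 window, where the others had 9, 9 and 10, and 3 in the Igfbp5 window, where the others had 17, 17 and 18. Its list was the shortest of the E12 endothelial lists, at 39096 peaks. Among the strongest peaks, heart replicate 2 had 2 in the Igfbp5 window (others 1 each), trunk replicate 3 had 1 in the Igfbp2 and 1 in the Igfbp5 window (others 0), and trunk replicate 2 had 6 in the Igf1r window (others 8 each).

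Among the 19464 strongest peaks of each list, fewer than in the P6 comparison, and organs with at least 2 libraries of each kind, every endothelial library lay above every input library in 1 organ and below in another for 3 of 12 combinations of member and age. The difference between these organs was not tested, and the combinations depend on list length: with 27160 peaks Igfbp7 at P6 also met this, with heart, liver and retina above and lung below. For Igfbp7 in adults, endothelial minus input was 4.5 peaks in liver and -2 in kidney, 6.5 apart. For Igfbp3 at P6 it was 1.5 in heart and -2 in liver, 3.5 apart. For Igf1r at P6 it was 2.5 in liver, 1.83 in lung and -4 in heart, 6.5 and 5.83 apart.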

How the results depend on the processing

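In adults, 821 gene windows differed between endothelial and input lists, against 5185 with full lists, 338 with ranking by fold, 91 with a 10 kb window and 0 with −log10 q of at least 5 or with strata of organ and read processing. Without single libraries the count ran from 0 to 887. At P6, 5916 windows became 3179 with 10 kb, and 5157 regions became 3226 with −log10 q of at least 5, 2820 with 50% cover and 3127 without retina. Between adult and P6, 429 windows became 16296 with full lists, 2374 with ranking by fold, 14278 with −log10 q of at least 5, 17 with 10 kb and 0 without retina, and 147 to 437 without single libraries; 0 regions became 3948 with full lists and 1002 with −log10 q of at least 5. For organs, full lists gave 0 windows for brain (537 otherwise), heart (196) and lung (199) and 585 for liver (1339). Without single libraries these ran from 0 to 566, 0 to 94, 0 to 155 and 0 to 1357, and retina (5779) from 3696 to 6013. The cause of these shifts was not tested.

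Correlations of deviations between same-numbered endothelial and input libraries at P6 ran from -0.040 to 0.116. With so few libraries per group they cannot decide whether replicate numbers pair the samples. With the replicate block, windows called were 0 in adults, 1638 at P6 and 0 between ages, and regions at P6 0; the Igfbp3 difference at P6 became 0.083.

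Window differences of the members turned sign in these settings. With full lists, Igf1r was -6.75 in adults and -3.64 at P6, and between ages Igfbp2 was -3.86 and Igfbp5 -4.33. With −log10 q of at least 5 the same 4 were -4.25, -0.78, -2.25 and -2.53, and Igfbp4 at P6 was -0.50. With ranking by fold, Igfbp3 at P6 was 0.47, the region in Igfbp5 0.70 libraries above expectation, and between ages Igfbp4 was 0.083 and Igfbp7 1.00. With 10 kb, adult Igfbp2 was 0.083. Without retina, Igfbp7 was 0.20 and Igf1r 0.10 between ages, and Igfbp7 ran from -0.31 to 0.19 without single libraries. In single cells, 6 of 36 log2 ratios between ages turned sign in at least 1 of 8 settings, 18 values in all, and each was of Igfbp2, Igfbp3 or Igfbp5. The ratio of Igfbp3 from P8 to the adult (0.38) was -0.40 with at most 5% mitochondrial UMIs and -0.08 as the mean of CPM per barcode. Against E9.5, Igfbp3 at P8 (0.04) was as low as -0.32 and in the adult (0.42) as low as -0.39. The ratio of Igfbp5 from P8 to the adult (-0.15) was above 0 in 5 settings, up to 2.06. The log2 ratio of Igfbp5 from E16.5 to P8 was -0.39, -1.45 and -1.06 in the settings given above, and that of Igfbp2 from P8 to the adult was -1.19 without barcodes carrying markers of another cell type. Depth limits Igfbp5 most, with 36 UMIs at E16.5.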
